A study of Mus musculus with 6 samples.

Results

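The genes described here are the 7 that write and remove DNA methylation in mouse cells, namely the DNA methyltransferases Dnmt1, Dnmt3a and Dnmt3b, the methyltransferase partner Uhrf1, and the dioxygenases Tet1, Tet2 and Tet3. They were chosen by name, with earlier results of these data known, and are 7 of the 27179 genes of the count table. RNA was sequenced from germinal center (GC) B cells, the antigen-activated B cells that divide and mutate their antibody genes inside lymphoid follicles. The cells were sorted from spleen as CD138-, IgM-, IgD-, Gr1-, B220+, CD38- cells that bound the hapten NP and carried surface IgG1. Both groups were C57BL/6 mice that had been injected i.p. with NP-KLH in alum: wild-type (WT) mice, and Il21r-/- mice, which lack a working receptor for the T cell cytokine IL-21. There was 1 library for each genotype on days 7, 10 and 14 after immunization, which makes 3 libraries per genotype and 6 in all. The deletion is not restricted to B cells, and the methods state that experiments other than the nucleoside-labelling time courses used irradiated Ly5.1 recipients of WT or Il21r-/- bone marrow, so that remaining host cells are possible. The labels give no age for these mice. The sources differ on the mice behind a library: the labels describe 1 mouse per sample, whereas the supplement describes IgG1+ cells enriched from 3 mice of each genotype on day 7. The methods give a total number of mice per genotype that is larger than the number of libraries, which goes with pooling. They also state that these mice came from more than 1 independent immunization. Which immunization each library came from is not stated, so that immunization and day may be confounded. The p-values below therefore measure the spread between these libraries only.

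DNA methylation in mammals sits mainly on the cytosine of CpG dinucleotides. Dnmt1 copies the pattern onto the new strand after each round of DNA replication, and Uhrf1 recognises the hemimethylated site and recruits Dnmt1 to it. Dnmt3a and Dnmt3b place methyl groups at unmethylated sites. The Tet enzymes oxidise the methyl group, after which it is lost by dilution through replication or is cut out by base excision repair. GC B cells divide fast, and Dnmt1 is known to be abundant in them.

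The promoters of Dnmt1, Uhrf1 and Dnmt3a are shown because these are the 3 genes whose RNA differed between genotypes in at least one of the fits below. Each is a RefSeq window of the GRCm38.p6 build that runs from 250 bases before an annotated transcription start to 50 bases after it. All 7 genes matched the RefSeq table, with 12 windows between them, and gene counts do not tell which start was used. Capitals mark the E2F-type motif, the recognition sequence of factors known to switch on DNA replication genes, searched on both strands as TTTCCCGC, TTTCGCGC, TTTGCCGC and TTTGGCGC. These motifs are variants of one pattern, and matches on opposite strands may overlap. The Dnmt1 window is the third annotated start, at chr9:20952574-20952873 on the minus strand, the Uhrf1 window the second, at chr17:56304063-56304362 on the plus strand, and the Dnmt3a window the first, at chr12:3806730-3807029 on the plus strand.
Dnmt1: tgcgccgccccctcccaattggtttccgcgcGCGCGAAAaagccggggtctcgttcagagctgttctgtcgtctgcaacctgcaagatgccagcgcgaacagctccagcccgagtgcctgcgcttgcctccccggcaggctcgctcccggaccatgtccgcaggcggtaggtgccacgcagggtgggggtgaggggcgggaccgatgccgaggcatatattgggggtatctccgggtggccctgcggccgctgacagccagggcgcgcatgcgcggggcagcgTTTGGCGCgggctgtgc
Uhrf1: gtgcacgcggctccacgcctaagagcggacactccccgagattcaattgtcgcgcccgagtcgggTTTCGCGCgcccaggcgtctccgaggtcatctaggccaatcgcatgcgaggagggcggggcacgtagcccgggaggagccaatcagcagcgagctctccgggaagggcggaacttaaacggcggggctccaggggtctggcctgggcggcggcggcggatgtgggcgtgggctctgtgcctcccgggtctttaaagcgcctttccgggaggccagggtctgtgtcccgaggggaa
Dnmt3a: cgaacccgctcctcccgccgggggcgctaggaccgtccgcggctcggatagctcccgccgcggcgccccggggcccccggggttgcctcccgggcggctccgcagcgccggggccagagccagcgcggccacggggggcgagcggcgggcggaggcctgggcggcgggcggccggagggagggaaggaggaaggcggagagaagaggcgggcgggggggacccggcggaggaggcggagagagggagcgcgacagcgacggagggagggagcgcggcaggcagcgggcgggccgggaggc
The Dnmt1 window held 2 matches, TTTCGCGC on the opposite strand (printed as GCGCGAAA) from base 32 of the window and TTTGGCGC from base 284, and the Uhrf1 window held 1, TTTCGCGC from base 66. None of the other 10 windows of the 7 genes, the 3 of Dnmt3a included, held these letters. The motif was present in 744 of all 32851 RefSeq windows (2.26%), in 453 of the 10781 windows of tested genes (4.20%) and in 8 of the 24 windows found for genes of the S phase list described below (33.3%). The printed windows of Dnmt1 and Uhrf1 had 33 CpG dinucleotides each and that of Dnmt3a had 46, against a median of 21 for windows of tested genes. For Dnmt1 and Uhrf1 only the printed window held the motif, and it was also the richest in CpG of the gene's windows. The windows not printed had 2 and 12 CpG dinucleotides for Dnmt1, 12 for Uhrf1, and 47 and 18 for Dnmt3a. The comparison with the median therefore holds for the printed windows only. A match is a description of the letters and does not show that a factor bound there.

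The libraries held between 21353438 and 27435124 counts assigned to genes. Il21r, the deleted gene, had 345.8, 263 and 247 CPM (counts scaled to library size) in WT cells on days 7, 10 and 14 and 106, 128 and 113 CPM in Il21r-/- cells, so that the libraries labelled Il21r-/- kept between 30.6% and 48.5% of the WT level on the same day. It was higher in WT over the 3 days by 1.29 ± 0.13 (log2 fold change ± SE) with an adjusted p of 0.00137 (edgeR quasi-likelihood test, Benjamini-Hochberg). Markers of GC B cells summed to between 13392 and 15825 CPM in WT and between 14458 and 17417 CPM in Il21r-/- cells. T cell markers did not exceed 122 CPM in any library, and Lck carried nearly all of that sum. Without Lck they summed to between 1.02 and 1.65 CPM, with Cd3e and Cd8a at 3 counts or fewer. Myeloid markers did not exceed 9.47 CPM and erythroid markers did not exceed 33.6 CPM. The same gene-by-gene fit was made for 11005 genes of sufficient expression. It held 6 of the 7 genes, since Tet1 fell below the expression limit.

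Per unit of transcript length, the maintenance pair stood far above the other genes. Mean levels over the 6 libraries, in RPKM (counts scaled to library size and to transcript length), were 69.1 for Uhrf1, 41.8 for Dnmt1, 2.63 for Tet3, 1.99 for Dnmt3a, 0.674 for Dnmt3b, 0.103 for Tet2 and 0.0301 for Tet1. Uhrf1 exceeded Dnmt1 in 6 of 6 libraries by 1.65-fold on average, although their ranges across libraries overlapped. Dnmt1 exceeded Tet3 by 15.9-fold with no overlap. Tet3 and Dnmt3a overlapped, with Tet3 higher in 5 of 6 libraries, and were not separated beyond their spread. Dnmt3a exceeded Dnmt3b by 2.96-fold and Dnmt3b exceeded Tet2 by 6.52-fold, both without overlap, while the ranges of Tet2 and Tet1 overlapped. Tet3 made up between 92.9% and 96.9% of the summed RPKM of the 3 Tet genes in every library.

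**Figure D1:**
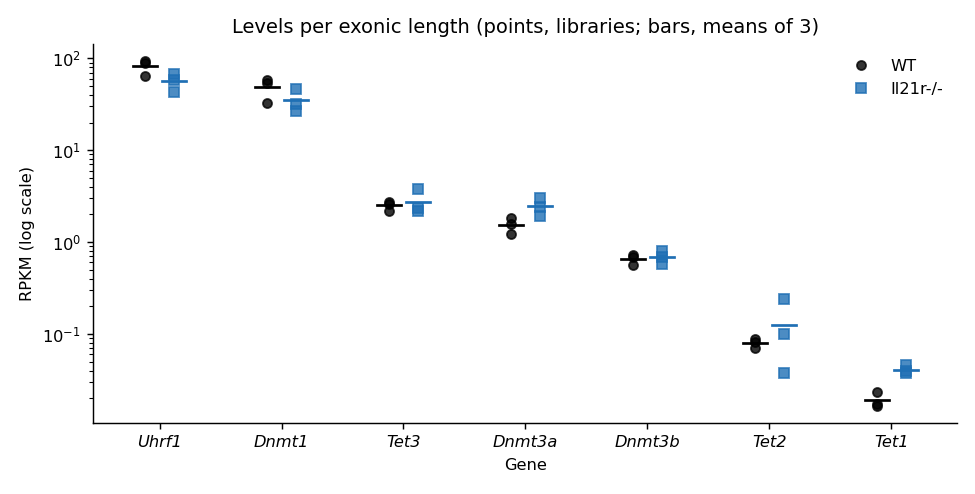
Length-scaled RNA level (RPKM, log axis) of the 7 genes in each of the 6 libraries, with points for libraries coloured by genotype and bars at the mean of 3 libraries per genotype. Uhrf1 (mean 69.1 RPKM) and Dnmt1 (41.8 RPKM) lie more than an order of magnitude above Tet3 (2.63 RPKM) and Dnmt3a (1.99 RPKM), and Tet1 is lowest (0.0301 RPKM).

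Uhrf1 (Entrez 18140; chr17:56303337-56323486, GRCm38) had 232, 323 and 339.6 CPM in WT cells on days 7, 10 and 14 and 158, 249 and 212 CPM in Il21r-/- cells. On each day the Il21r-/- library was the lower one, at 67.9%, 77.2% and 62.6% of WT, but the lowest WT library (day 7) was below the highest Il21r-/- library (day 10), so that the genotypes overlapped when days were ignored. The means were 298 ± 57.6 CPM in WT and 206 ± 46.0 CPM in Il21r-/- cells (SD, n = 3 libraries each, spread over 3 days). With day as a linear term, the difference was 0.52 ± 0.15 on the log2 scale (SE; positive values are higher in WT), with an unadjusted p of 0.00741 and an adjusted p of 0.0831 in the edgeR quasi-likelihood test, which misses the threshold of 0.05. With a separate mean for each day, which pairs the libraries of a day, it was 0.54 ± 0.079 with an adjusted p of 5.61e-06 in the same edgeR test. Without the Il21r-/- library of day 10, the linear fit gave 0.70 with an edgeR adjusted p of 0.000299, past the threshold. Without any other single library it ranged from 0.39 (without Il21r-/- day 14, edgeR adjusted p = 0.327) to 0.62 and was not called.

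Dnmt1 (Entrez 13433; chr9:20907206-20959888) had 207, 370.0 and 340.0 CPM in WT cells on days 7, 10 and 14. In Il21r-/- cells it had 169, 296 and 199.9 CPM, again below WT on each day, at 81.9%, 79.9% and 58.8% of the WT level. The means were 306 ± 87.0 CPM in WT and 222 ± 66.1 CPM in Il21r-/- cells (SD, n = 3 libraries each), and the genotypes overlapped when days were ignored. The difference was 0.44 ± 0.23 on the log2 scale with linear day (edgeR adjusted p = 0.314) and 0.46 ± 0.087 with a mean per day (edgeR adjusted p = 0.000426). Without the day 14 libraries the latter became 0.31 with an edgeR adjusted p of 0.0572, so that this call rested on day 14. In the linear fit the difference was 0.19 without Il21r-/- day 14, 0.25 without WT day 10 and 0.72 without Il21r-/- day 10, and was not called in any of the 6 omissions. The ratio of Uhrf1 to Dnmt1 RPKM overlapped between genotypes, at 1.51 to 1.94 in WT and 1.45 to 1.84 in Il21r-/- cells. Its exact permutation p was 0.6, where 0.1 is the smallest possible.

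**Figure D2:**
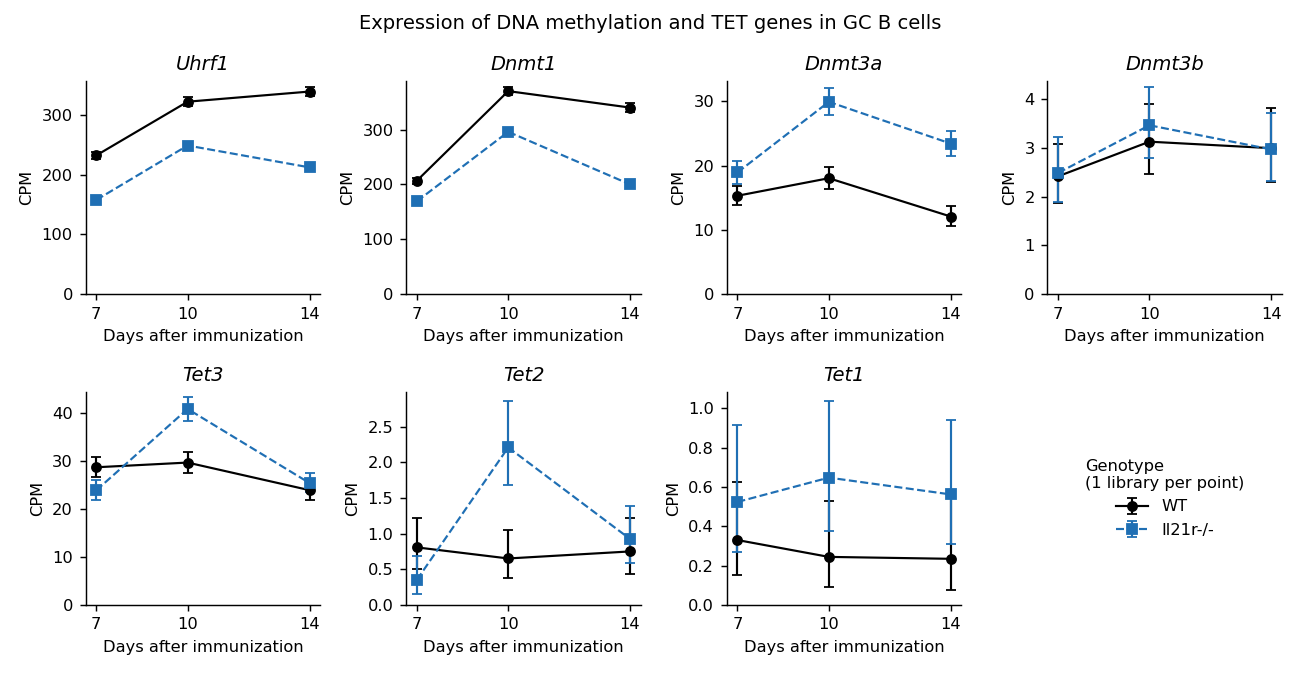
RNA level (CPM) of each gene by day after immunization, with 1 library per point, WT as black circles on solid lines and Il21r-/- as blue squares on dashed lines; error bars are 95% Poisson intervals and cover counting error only. Uhrf1 and Dnmt1 are lower and Dnmt3a is higher in the Il21r-/- library on each of the 3 days, and Tet2 and Tet3 are highest in the Il21r-/- library of day 10.

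Dnmt3a (Entrez 13435; chr12:3801559-3914443), the main de novo enzyme of these cells by RNA level, moved the other way. It had 15.3, 18.1 and 12.1 CPM in WT cells on days 7, 10 and 14 and 18.9, 29.9 and 23.4 CPM in Il21r-/- cells. Every Il21r-/- library was above every WT library, and the Il21r-/- level was 124%, 166% and 194% of WT on the 3 days in order. The means were 15.1 ± 2.99 CPM in WT and 24.1 ± 5.53 CPM in Il21r-/- cells (SD, n = 3 libraries each). The log2 difference was -0.67 ± 0.20 with linear day (unadjusted p = 0.00983, adjusted p = 0.0987, edgeR quasi-likelihood test) and -0.66 ± 0.12 with a mean per day (edgeR adjusted p = 0.000176). Without the Il21r-/- library of day 7, the linear fit gave -0.91 with an edgeR adjusted p of 0.0328, past the threshold. Without any other single library it was not called, and it was closest to 0 without WT day 14, at -0.46 (edgeR adjusted p = 0.4997). Markers of B cells outside GCs summed to between 559 and 1222 CPM in WT and between 934 and 1447 CPM in Il21r-/- cells, each of the 8 being detected. Of these, 4 were higher in the Il21r-/- library on each day, Fcer2a, Ccr6 and S1pr1 among them, while Ighm was lower on each day. Fcer2a carried the difference in the sum: without it the sums were 829.7, 540.4 and 405 CPM in WT and 639, 567 and 423 CPM in Il21r-/- cells on days 7, 10 and 14, with WT the higher on day 7. Plasma cells, which the CD138- gate is set to remove, were represented by 6 markers that summed to between 2524 and 2739 CPM in WT and between 2774 and 3621 CPM in Il21r-/- cells. Jchain and Xbp1 were higher in the Il21r-/- library on each day, whereas the defining markers Sdc1 (CD138), at 0.361 to 0.854 CPM in any library, and Prdm1, at 0.262 to 1.83 CPM, were lower on each day. The part of either list in the Dnmt3a result was not tested, and in sorted bulk RNA a change in the mix of cells and a change in RNA per cell cannot be told apart. The antisense gene Dnmt3aos, which overlaps Dnmt3a, had 0 counts in each library. The kit was unstranded and the handling of reads over both genes is not given, so that this does not show that antisense RNA was absent.

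Dnmt3b (Entrez 13436; chr2:153649411-153687730), the other de novo enzyme, was low in both genotypes. It had 2.42, 3.13 and 2.997 CPM in WT and 2.49, 3.47 and 2.97 CPM in Il21r-/- cells on days 7, 10 and 14, from 57 to 91 counts per library. The genotypes overlapped, and the log2 difference was -0.07 ± 0.21 (edgeR adjusted p = 0.891), or -0.06 ± 0.21 with a mean per day.

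The balance between maintenance and de novo enzyme RNA combined these opposite differences. The RPKM ratio of Dnmt1 to Dnmt3a was 21.1, 32.0 and 44.0 in WT cells on days 7, 10 and 14, and 14.0, 15.4 and 13.3 in Il21r-/- cells. It was higher on each later day in WT and stayed between 13.3 and 15.4 in Il21r-/- cells, with no overlap. The ratio of Uhrf1 to Dnmt3a was 41.0, 48.2 and 75.9 in WT and 22.5, 22.5 and 24.5 in Il21r-/- cells, also without overlap. Dnmt3a made up 4.46%, 2.99% and 2.20% of the summed RPKM of the 3 methyltransferases in WT cells and 6.56%, 5.99% and 6.84% in Il21r-/- cells. Each of these ratios gave a two-sided exact permutation p of 0.1, the smallest that 3 against 3 libraries allow, so that none could pass 0.05. They are made from the counts of the genes described above and are not independent of them.

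**Figure D3:**
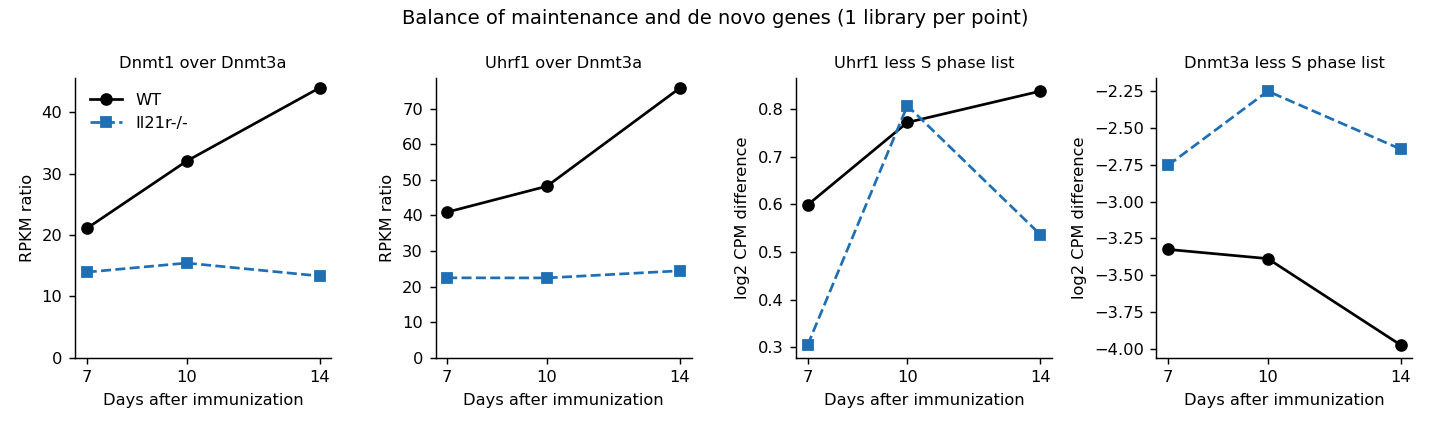
Balance measures by day after immunization, with 1 library per point: the RPKM ratios of Dnmt1 to Dnmt3a and of Uhrf1 to Dnmt3a, and the log2 CPM of Uhrf1 and of Dnmt3a minus the mean log2 CPM of 28 S phase genes. Both ratios are separated by genotype on every day, as is Dnmt3a relative to S phase genes, whereas Uhrf1 relative to S phase genes overlaps between genotypes. The separation of Dnmt3a relative to S phase genes follows from the opposite separations of Dnmt3a and of the S phase mean.

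Among the Tet genes, Tet3 (Entrez 194388; chr6:83362373-83457208) carried nearly all of the RNA. It had 28.7, 29.6 and 23.9 CPM in WT cells on days 7, 10 and 14 and 23.8, 40.8 and 25.4 CPM in Il21r-/- cells. The genotypes overlapped, with Il21r-/- lower on day 7 and higher on days 10 and 14, and the log2 difference was -0.14 ± 0.21 (edgeR adjusted p = 0.757). Without the Il21r-/- library of day 10 it was 0.15, so that its sign rested on that library. B230319C09Rik, a gene that overlaps Tet3, had between 0 and 3 counts per library, with the same limit as for Dnmt3aos.

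Tet2 (Entrez 214133; chr3:133463677-133545136) was near the expression limit, with 22, 16 and 16 counts in WT and 8, 58 and 23 counts in Il21r-/- cells. These are 0.806, 0.650 and 0.749 CPM in WT and 0.349, 2.21 and 0.923 CPM in Il21r-/- cells. The Il21r-/- library of day 10 stood above the other 5, and its 95% Poisson interval of 1.68 to 2.86 CPM was above those of the rest. The log2 difference of -0.66 ± 0.56 (edgeR adjusted p = 0.545) became 0.27 without that library. Tet1 (Entrez 52463; chr10:62804570-62887469) had 9, 6 and 5 counts in WT and 12, 17 and 14 counts in Il21r-/- cells. Its 0.330, 0.244 and 0.234 CPM in WT were all below the 0.524, 0.648 and 0.562 CPM in Il21r-/- cells, while the Poisson intervals of the genotypes overlapped on each day. When genes of any count were kept, 16909 in all, its log2 difference was -1.08 ± 0.47 with an edgeR adjusted p of 0.230.

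Counted together over the 3 days, 0 of the 6 tested genes passed an adjusted p of 0.05 in the edgeR quasi-likelihood test with linear day, against 5.92% of all tested genes (1.40% toward WT and 4.52% toward Il21r-/-). Uhrf1 and Dnmt3a were the 2 with an unadjusted p under 0.05. The DESeq2 Wald test in the same design called these 2 genes, Uhrf1 at 0.53 (adjusted p = 0.00921) and Dnmt3a at -0.66 (adjusted p = 0.0212), against 8.64% of all tested genes. With a mean per day, edgeR called 3 of 6, with Uhrf1 and Dnmt1 higher in WT and Dnmt3a higher in Il21r-/- cells, against 22.9% of all tested genes, 9.33% toward WT and 13.6% toward Il21r-/-. Of the tested genes, 10.0% had every Il21r-/- library above every WT library, as Dnmt3a did, and 8.33% had the reverse order, which none of the 7 genes showed. Tet1, which fell below the expression limit and is outside these shares, had the same order as Dnmt3a at low counts. Single days gave 0 of 6 calls each in edgeR's likelihood ratio test, against 1.07%, 3.10% and 3.28% of all tested genes on days 7, 10 and 14, with 1, 0 and 2 members at an unadjusted p under 0.05. With 1 library per genotype on a day, these tests assume that a lone library varies like those of the other days. Uhrf1 differed by 0.56, 0.37 and 0.68 on days 7, 10 and 14 (edgeR adjusted p = 0.894, 0.767 and 0.247). Dnmt3a differed by -0.31, -0.73 and -0.96 (edgeR adjusted p = 0.999, 0.472 and 0.207). Taking the spread from the fit with a mean per day, which pairs the libraries, changed these calls. It called 1 of 6 on day 7, Uhrf1 (edgeR adjusted p = 0.0227), against 2.75% of all tested genes, and 1 of 6 on day 10, Dnmt3a (edgeR adjusted p = 0.0165), against 7.47%. On day 14 it called 3 of 6, Dnmt1 at 0.77 (edgeR adjusted p = 0.000386), Uhrf1 (edgeR adjusted p = 0.000831) and Dnmt3a (edgeR adjusted p = 0.00102), against 9.59%. Whether the difference changed with day was tested as an interaction, which called 0 of the 6 genes and 0.00% of all tested genes in edgeR (118 genes, none of them among the 6, had an unadjusted p under 0.05).

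**Figure D4:**
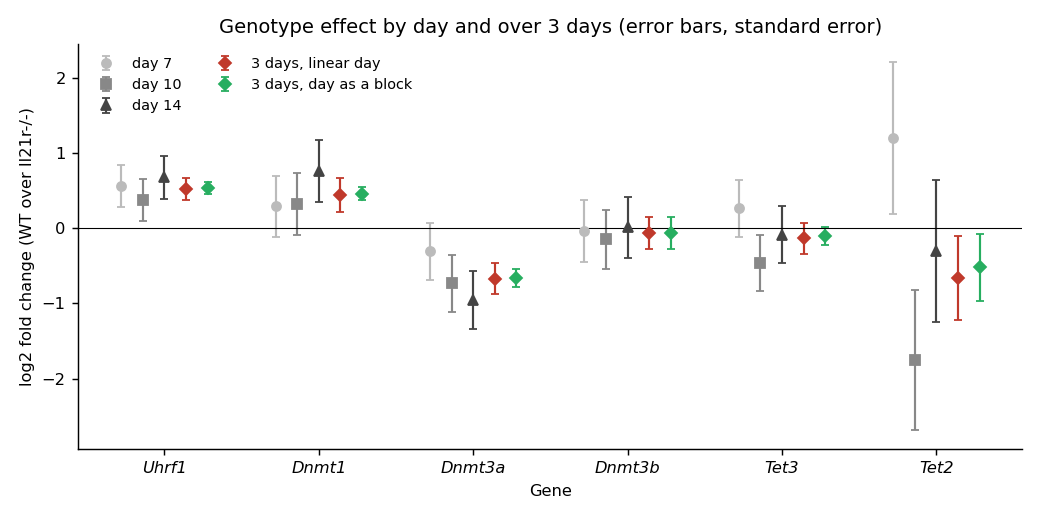
Log2 fold change of WT over Il21r-/- for the 6 tested genes on days 7, 10 and 14 (grey circle, square and triangle), over the 3 days with linear day (red diamond) and over the 3 days with a mean per day (green diamond); error bars are SE. Uhrf1 (0.52) and Dnmt1 (0.44) lie above 0 and Dnmt3a (-0.67) below 0 in each of these estimates, and Tet2 and Tet3 change sign between days.

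Across days, day 10 was the highest day for each of the 6 tested genes in Il21r-/- cells. WT cells peaked on day 10 as well for Dnmt1, Dnmt3a, Dnmt3b and Tet3, on day 14 for Uhrf1 and on day 7 for Tet2. The linear day effect called 0 of 6 genes in edgeR, against 4.43% of all tested genes, and the DESeq2 Wald test also called 0. Uhrf1 was the 1 gene with an unadjusted p under 0.05, at 0.45 ± 0.19 over the 7 days (edgeR adjusted p = 0.198). A mean per day, an alternative for day 14 and one chosen after seeing the data for day 10, placed Dnmt1 0.82 ± 0.11 higher on day 10 than on day 7 (edgeR adjusted p = 1.84e-05), Uhrf1 0.57 ± 0.096 higher (edgeR adjusted p = 0.000122) and Dnmt3a 0.45 ± 0.15 higher (edgeR adjusted p = 0.0407), which is 3 of 6 against 14.4% of all tested genes (9.02% higher on day 10). The DESeq2 Wald test gave Dnmt3a a similar 0.43 but did not call it (adjusted p = 0.166), leaving 2 of 6 against 10.2% of all genes with an adjusted p. With DESeq2 size factors, edgeR called a further gene, Tet3, at 0.39 (adjusted p = 0.0408), which makes 4 of 6 against 15.7%. Day 14 against day 7 called 2 of 6, Dnmt1 at 0.49 ± 0.11 (edgeR adjusted p = 0.00173) and Uhrf1 at 0.49 ± 0.096 (edgeR adjusted p = 0.000344), against 26.2% of all tested genes (12.6% higher on day 14). Dnmt3a was at -0.01 ± 0.15 between those days. With 1 library per genotype on a day, time and anything else that the libraries of a day share cannot be told apart.

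Replication genes had differences of the same sign as the maintenance pair. Of 28 S phase genes (replication licensing, nucleotide supply and polymerase genes), 27 had a positive difference over the 3 days, with a median of 0.38 on the log2 scale, whereas 5308 of all 11005 genes were positive with a median of -0.01. Linear day called 3 of the 28, all higher in WT, against 1.40% of all tested genes in that direction. Among them were Rrm2, a subunit of ribonucleotide reductase, at 0.48 (edgeR adjusted p = 0.0273) and the cyclin Ccne1 at 0.51 (edgeR adjusted p = 0.0379). A mean per day called 23, all higher in WT, against 9.33% of all tested genes in that direction. Of 20 mitotic genes, 20 were positive with a median of 0.36. Linear day called 0 of them and a mean per day 17, all higher in WT, against the same 9.33%. Relative to the mean log2 CPM of the S phase genes, Uhrf1 stood at 0.60, 0.77 and 0.84 in WT and 0.30, 0.81 and 0.54 in Il21r-/- cells on days 7, 10 and 14, and Dnmt1 at 0.43, 0.97 and 0.84 against 0.40, 1.06 and 0.45. Both overlapped between genotypes on that scale (exact permutation p = 0.3 for Uhrf1 and 0.9 for Dnmt1). The permutation ignores the pairing of libraries by day, and its smallest possible p is 0.1, so that it could not show a difference. Paired by day, WT minus Il21r-/- was 0.29, -0.035 and 0.30 for Uhrf1 and 0.024, -0.085 and 0.39 for Dnmt1 on days 7, 10 and 14. On the same scale Dnmt3a stood at -3.32, -3.39 and -3.98 in WT and at -2.75, -2.25 and -2.64 in Il21r-/- cells, without overlap. The S phase mean itself was 7.26, 7.56 and 7.57 in WT and 7.00, 7.15 and 7.19 in Il21r-/- cells. Because Dnmt3a alone was already separated in the opposite direction, the subtraction had to separate the genotypes and adds nothing to the Dnmt3a result. The part of cell cycle position in the Uhrf1 and Dnmt1 results was not tested beyond these values.

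The other genes of the pathway were taken from lists of known partners. Of 12 listed partners of Uhrf1 and the methyltransferases, not limited to maintenance, 11 were tested and 10 were positive with a median of 0.31. The germ-cell cofactor Dnmt3l was too low. None was called with linear day. With a mean per day 8 were called, all higher in WT (9.33% of all tested genes were), among them the DNA ligase Lig1 at 0.40, the PCNA-binding protein Pclaf at 0.32, the sliding clamp Pcna at 0.31 and Cdca7, the partner of the remodeller Hells, at 0.32. The S phase genes above differed in the same direction, and whether the partner list differed apart from them was not tested. Of 10 methyl-CpG readers 5 were positive, with a median of -0.01, and none was called with linear day. A mean per day called 1, Zbtb38, at 0.45 and higher in WT. This share was near the 9.33% of all tested genes in that direction and below the 22.9% in either direction.

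Downstream of the Tet enzymes, 11 of 12 genes for repair of oxidised or deaminated bases were tested, Neil2 being too low, and 8 of the 11 were positive with a median of 0.18. Linear day called 1 of the 11, higher in Il21r-/- cells, as were 4.52% of all tested genes. This was Gadd45g, a stress-induced gene linked to active demethylation, at 2.05, 2.81 and 1.92 CPM in WT and 6.20, 6.74 and 6.62 CPM in Il21r-/- cells on days 7, 10 and 14. All Il21r-/- libraries lay above all WT libraries, and the log2 difference was -1.53 ± 0.20 (edgeR adjusted p = 0.00407). With a mean per day 3 more were called, each higher in WT as were 9.33% of all tested genes: the uracil glycosylase Ung at 0.41, Gadd45b at 0.38 and Tdg, which removes the oxidised bases made by Tet enzymes, at 0.26. Of 7 Tet partners 6 were tested, Cxxc4 being too low, and all 6 were positive with a median of 0.12. Linear day called 1 of the 6 higher in WT, against 1.40% of all tested genes. This was Cxxc5, a CXXC-domain protein, at 0.71 ± 0.11 (edgeR adjusted p = 0.00991). It had 46.2, 49.6 and 49.5 CPM in WT against 31.1, 31.9 and 26.2 CPM in Il21r-/- cells, without overlap. A mean per day added Dcaf1, a ubiquitin ligase adaptor, at 0.29, which makes 2 of 6 in a background of 9.33% higher in WT. Of 14 genes for the methyl donor and for 2-oxoglutarate, the Tet co-substrate, 11 were positive with a median of 0.18. Linear day called 2, both higher in WT, against 1.40% of all tested genes in that direction. These were the mitochondrial isocitrate dehydrogenase Idh2 at 0.49 (edgeR adjusted p = 0.0309) and Ahcy, which clears the by-product of methylation, at 0.45 (edgeR adjusted p = 0.0325). A mean per day added the mitochondrial folate enzyme Shmt2 at 0.32. That makes 3 of 14, all higher in WT, against 9.33% of all tested genes in that direction and 22.9% in either direction. By day, the folate enzyme Shmt1 rose by 0.63 over the 7 days (edgeR adjusted p = 0.0437), as did the S phase gene Tyms by 0.79 (edgeR adjusted p = 0.0119). Each was the 1 gene of its list called by day, against 4.43% of all tested genes.

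Genes whose pattern over the 6 libraries was most like each member were ranked by the root mean square difference of centred log2 CPM among 8440 genes. For Uhrf1 these were the histone chaperone subunit Chaf1a (0.0601), Timeless (0.0633) and Rif1 (0.0717), and for Dnmt1 they were Zbtb38 (0.0566), Esf1 (0.0653) and Nol8 (0.0711). For Dnmt3a they were the potassium channel gene Kcnk6 (0.102), the B cell transcription factor Pax5 (0.115) and Tmem231 (0.148). For Tet3 they were Usf3 (0.0329), Helz2 (0.0359) and Ap5z1 (0.0385), and for Dnmt3b they were Rprd2 (0.0200), Zfp710 (0.0216) and Hdac6 (0.0418). Tet2 had no gene closer than Lyst (0.461), followed by Zbed6 (0.479) and Fam193b (0.483). The 8440 genes all had a mean log2 CPM of at least 3, whereas Tet2 was at 0.052 and Dnmt3b at 1.57. Counting error at such low counts adds to the distances of Tet2, which therefore do not show a distinct pattern. Among the members themselves, Dnmt1 and Uhrf1 were 0.149 apart, while Dnmt3a was 0.643 from Dnmt1 and 0.658 from Uhrf1. The libraries share depth and sort across all genes, so that these distances are a description only.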

How the data were processed

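The 6 libraries held RNA of splenic GC B cells sorted for NP binding and IgG1. The authors made the deposited counts: 100 bp single-end reads from an unstranded kit (TruSeq v2) passed CASAVA 1.8.2 and were aligned to mm10 with Rsubread, and reads per RefSeq gene were counted with featureCounts after technical replicates were pooled. The strand and multi-mapping settings are not given in the sources used here. The gene lengths deposited beside the counts gave RPKM. The table's 27179 Entrez identifiers were named from RefSeq (25275) or GENCODE (18), and 1886 kept no symbol. No column lacked a sample.

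Genes with a mean log2 CPM under 0 were left out, as were Y-chromosome, Xist and immunoglobulin variable genes (137), leaving 11005. After TMM scaling, edgeR 4.0.16 (R 4.3.3, limma 3.58.1) gave quasi-likelihood tests of genotype, linear day and their interaction, and likelihood ratio tests on single days. Fold changes are WT over Il21r-/-, p-values were adjusted by Benjamini-Hochberg over all tested genes at 0.05, and an SE is the absolute log2 fold change over the root of the test statistic. DESeq2 1.42.0 was an alternative. The scripts were tested on simulated data. Poisson intervals (95%) cover counting error only.

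Libraries were paired across genotypes by the day in their labels. Deviations from the genotype means correlated across the 11005 genes on each day, at 0.640, 0.413 and 0.645 for days 7, 10 and 14, and the fit with a mean per day (the replicate block) is therefore given beside results it changes.

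The 7 genes and all lists were chosen with earlier results of these data known. Named are the 7 genes, Il21r, list genes called for genotype or day (up to 4 per list, by adjusted p), list genes not tested, and the 3 genes most like each tested member. List genes called only with a mean per day are named as examples, chosen after their values were seen. Some list genes are not reported here.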

Additional observations from a re-analysis of the deposited data

How the results depend on the processing

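The linear-day genotype test called 651 genes and 0 of the 7 genes described here. Without the filter on low counts it called 991 and 1 (Uhrf1), the DESeq2 Wald test called 951 and 2, and the replicate block (a mean per day) called 2519 and 3. Leaving out 1 library gave between 132 and 2165 genes and between 0 and 1 of the 7, the lowest without WT day 14 and the highest without Il21r-/- day 10. Across these omissions Uhrf1 ranged from 0.39 to 0.70, Dnmt1 from 0.19 to 0.72, Dnmt3a from -0.91 to -0.46, Dnmt3b from -0.16 to 0.070, Tet2 from -1.23 to 0.27 and Tet3 from -0.36 to 0.15, and the latter 3 changed sign. In the block fit, leaving out both libraries of a day gave between 1004 and 2137 genes, with Tet2 from -1.11 to 0.35 and Tet3 from -0.27 to 0.10, both positive only without day 10. The signs of Uhrf1, Dnmt1 and Dnmt3a held in each of these 3-day alternatives, and the replicate block changed no call of the 6 tested genes other than those 3. Requiring 10 counts per library, scaling by DESeq2, and keeping the Y-chromosome, Xist and immunoglobulin variable genes left 0 of the 7 called.

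On single days, dispersions from the block fit called 303, 822 and 1055 genes and 1, 1 and 3 of the 7 on days 7, 10 and 14. Leaving 1 library of another day out of the dispersion estimate only gave between 104 and 220 genes on day 7. On day 14 it gave between 341 and 704 genes and 0 to 2 of the 7. The libraries compared, and so the fold changes, stayed the same in these settings. Keeping a linear day term called 722 genes and 1 of the 7 on day 10 and reversed Dnmt1 (-0.026), Tet2 (-0.12) and Tet3 (-0.068) on day 7 and Dnmt3b on days 10 (0.082) and 14 (-0.10). The linear day effect called 869 genes without the filter and 870 with DESeq2 against 488, day 14 against day 7 with the block called 2880 genes and 2 of the 7, and leaving out 1 library gave between 0 and 2177 genes and 0 to 1 of the 7, with Dnmt3a from -0.43 to 0.30, Tet2 from -0.75 to 0.87 and Tet3 from -0.50 to 0.044. Day 10 against day 7 called 1018 genes with DESeq2 against 1584. The interaction called between 0 and 12 genes when 1 library was left out. The cause of these changes was not tested. Tet1 had 5 to 17 counts per library, and its Poisson intervals overlapped between genotypes on each day. Overlap of intervals is not a test of the difference. Without the filter, its log2 difference was -0.64, -1.38 and -1.25 on days 7, 10 and 14, with 1 library per genotype on each day.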
